A study of Homo sapiens with 6 samples.

Results

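The comparison described here set IMR32 cells that had been cocultured with human lymphocytes and nivolumab against IMR32 cells grown alone. IMR32 is an established human neuroblastoma cell line with MYCN amplification. The cells expressed Cas9 and carried Brunello, a genome-wide library of guide RNAs (gRNAs). Nivolumab, an antibody that blocks the receptor PD-1 on lymphocytes, was given at 10 µg/ml, and the lymphocytes came from healthy donors after depletion of CD14+ cells. The adherent cancer cells were harvested on day 5 per the labels, and gRNAs were read from their genomic DNA. All groups shared Cas9 and the library, and the transduction was made in duplicate. The comparison used 4 of the 6 samples of the series, chosen by their condition: IMR32 alone (replicates 1 and 2) and coculture with nivolumab (replicates 1 and 2). The other 2 samples were coculture without nivolumab, and their values are set beside the results. Replicate 1 was a coculture at a low effector-to-target (E:T) ratio and replicate 2 at a high one, each with lymphocytes of another donor, so that E:T ratio, donor and replicate cannot be told apart. The nivolumab cocultures differed from IMR32 alone by both the lymphocytes and the antibody, which this comparison cannot separate.

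In a pooled knockout screen each cell carries a gRNA that directs Cas9 to cut a single gene, and the gRNA in its DNA then serves as a tag for the knockout. A gRNA with fewer reads after coculture marks knockout cells that were rarer at harvest, and a gRNA with more reads marks knockout cells that were more frequent. Lymphocytes recognize tumour cells through peptides on MHC class I and through activating ligands. They kill with granzymes and death ligands and release interferon gamma, which raises MHC class I and PD-L1 on responsive cells. Knockouts that alter division or energy supply also change in frequency in such cultures, with or without immune cells.

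The tables listed 77441 gRNAs under 19364 names. Of these names 250 were CON followed by a number and were no gene symbols. Their 1000 gRNAs were left out of the gene tests and used as a reference, and the files and labels do not say what they target. This left 76441 gRNAs to 19114 genes, 19107 of which had 4 gRNAs. Each library was made up of 58554842 to 79924251 equal steps. These were taken as its depth, although the sources do not say that a step is 1 read, and the median gRNA had between 843 and 858 normalized reads. Only 153 gRNAs were under 50 normalized reads in all 6 columns. They were kept, belonged to 151 genes, and were left out as an alternative. Libraries of the same replicate correlated at 0.961 to 0.966 on the log2 scale, and libraries of different replicates at 0.939 to 0.943.

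For each gRNA the log2 ratio of coculture with nivolumab over IMR32 alone was taken within a replicate, which gave 2 pairs, and the median of these ratios over its gRNAs is the score of a gene. A score of 0 means no difference and a negative score means that the knockouts were rarer in the coculture. Scores had a mean of -0.0026 and an SD of 0.113 in pair 1, and a mean of -0.00088 and an SD of 0.120 in pair 2. The cut-offs at 2 SD from the mean were -0.23 and 0.22 in pair 1 and -0.24 and 0.24 in pair 2, which is a loss to 0.854 or a gain to 1.17 times the reads in pair 1. In pair 1 506 genes lay below the low cut-off (2.65% of the genes) and 420 above the high cut-off (2.2%). In pair 2 446 lay below (2.33%) and 454 above (2.38%). Scores of the 2 pairs were nearly unrelated across genes, which are not independent replicates (Pearson r of 0.0075, Spearman rho of 0.0073). As a result 17 genes lay below both low cut-offs (0.0889%), 19 above both high cut-offs (0.0994%), and 40 past opposite cut-offs.

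**Figure D1:**
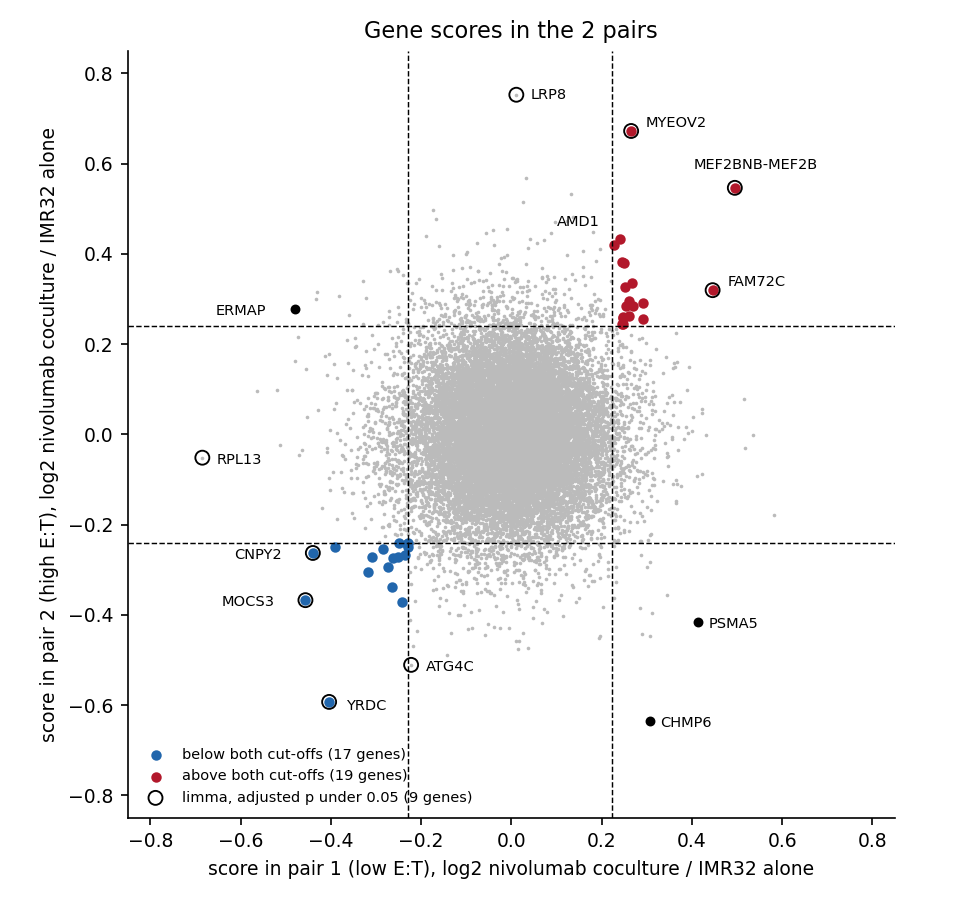
Score of each gene in pair 1 (x axis, low E:T) and pair 2 (y axis, high E:T), in log2 units of coculture with nivolumab over IMR32 alone. Dashed lines are the cut-offs at 2 SD, blue and red points the 17 and 19 genes past both of them, open circles the 9 genes called by limma, and black points 3 genes past opposite cut-offs. The cloud is round, with a Pearson r of 0.0075 across genes.

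Knockouts of 9 genes differed in limma over both pairs after Benjamini-Hochberg adjustment. The knockouts of YRDC, MOCS3, RPL13, ATG4C and CNPY2 fell (0.0262% of the genes), and those of MEF2BNB-MEF2B, MYEOV2, FAM72C and LRP8 rose (0.0209%). At an unadjusted p under 0.05 there were 589 lower and 433 higher genes. In this fit of 2 pair scores per gene limma estimated that its whole weight should lie on the variance shared over genes. Each gene thus had the same standard error of 0.0821, and the test ranked genes by the size of the mean score alone. With a variance that was allowed to follow gRNA abundance 0 genes passed in limma, at a smallest adjusted p of 0.126, and at an unadjusted p under 0.05 there were then 596 lower and 378 higher genes. Without the pairing by replicate limma also called 0 genes, with 109 lower and 96 higher at an unadjusted p under 0.05. Nothing in the sources shows that the 2 replicates were independent beyond the duplicate transduction and the separate lymphocyte donors, and the p-values measure only the spread between these samples.

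YRDC had the lowest mean score of all genes. It makes the activated threonylcarbamoyl group that is transferred to adenosine in certain tRNAs, and lies on chromosome 1 at chr1:37802945-37808208 (GRCh38, minus strand). Its 4 gRNAs together had 1322 normalized reads in IMR32 alone and 1049 in coculture with nivolumab in replicate 1, and 1461 and 1044 in replicate 2. The score was -0.40 in pair 1 and -0.59 in pair 2, a mean of -0.50 or 0.708 times the level in IMR32 alone (limma, adjusted p = 1.24e-05). Both coculture samples lay below both samples of IMR32 alone. Among its gRNAs YRDC_3 (log2 ratios of -0.41 and -0.60) and YRDC_4 (-0.40 and -0.59) were lower in both pairs, YRDC_1 was lower mainly in pair 1 (-0.51 and -0.06), and YRDC_2 was higher in pair 1 (0.16) and lower in pair 2 (-1.05). Coculture without nivolumab gave scores of the same size against the same control libraries, -0.40 and -0.58. The YRDC product acts ahead of the KEOPS complex. Of 7 genes of that pathway, a list drawn up after the scores were seen, YRDC itself passed both cut-offs. With YRDC counted, 3 were below 0 in both pairs (42.9%, against 25.4% of all genes) and 1 above (14.3%, against 24.8%). The list medians were -0.07 and -0.05.

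MOCS3, CNPY2 and ATG4C also fell. MOCS3 activates small sulfur carriers for tRNA thiolation and for the molybdenum cofactor (chr20:50958818-50963929). Its gRNAs summed to 2921 and 2355 normalized reads in replicate 1 (alone, then coculture with nivolumab) and to 1686 and 1433 in replicate 2. Its scores of -0.46 and -0.37 gave a mean of -0.41 (limma, adjusted p = 0.0025). Of its gRNAs 7 of 8 values were below 0, and the exception was MOCS3_4 in pair 2 with 139 reads in IMR32 alone and 230 in the coculture. A list of 10 genes of tRNA thiolation and the molybdenum cofactor, drawn up after the scores were seen, had medians of -0.08 and -0.07. With MOCS3 counted, 4 were below 0 in both pairs (40%, against 25.4% of all genes) and 1 above (10%, against 24.8%). CNPY2, a protein of the endoplasmic reticulum (chr12:56309842-56316119), went from 2493 to 1930 reads and from 2281 to 1901. Its scores were -0.44 and -0.26 (mean -0.35, limma, adjusted p = 0.040). Here too 7 of 8 values were below 0, and the exception was the gRNA with the fewest reads, CNPY2_3, with 58.2 and 86.0 reads in replicate 2.

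For ATG4C and RPL13 a single pair carried most of the difference. ATG4C encodes a protease that trims ATG8 proteins in autophagy (chr1:62784132-62865516). It went from 2747 to 2505 reads in replicate 1 and from 3677 to 2278 in replicate 2, with scores of -0.22 and -0.51 (mean -0.37, limma, adjusted p = 0.019). Its gRNA ATG4C_2 had 1501 reads in IMR32 alone of replicate 2 but between 384 and 516 in the other 5 libraries. RPL13, a protein of the large cytosolic ribosomal subunit (chr16:89560677-89564542), went from 859 to 540 reads in replicate 1 and from 695 to 650 in replicate 2. Its scores were -0.68 and -0.05 (mean -0.37, limma, adjusted p = 0.019), and its gRNAs had few reads, with a median of 157 in IMR32 alone against 863 over all genes.

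Of the genes that rose in limma, MEF2BNB-MEF2B and MYEOV2 rested on gRNAs with few reads. The study states that too few IMR32 cells were killed in coculture to assess enriched genes accurately. That limit holds for every gene that rose here. MEF2BNB-MEF2B, a read-through transcript of neighbouring genes now named BORCS8 and MEF2B (chr19:19145569-19192158), had the highest mean score of all genes, 0.52 (0.50 and 0.55, limma, adjusted p = 4.42e-06). Its gRNAs summed to 1835 reads alone and 1798 with coculture in replicate 1, and to 1371 and 1790 in replicate 2, so the sum was no higher in replicate 1. The score came from MEF2BNB-MEF2B_4, with 127 and 236 reads in replicate 1 and 107 and 195 in replicate 2, and from MEF2BNB-MEF2B_1, with 4.44 to 22.5 reads in any library. With gRNAs under 50 reads in every column left out, the mean score was 0.27 and the gene no longer lay above both cut-offs. MYEOV2 (now COPS9), a subunit of the COP9 signalosome (chr2:240126563-240136807), had scores of 0.27 and 0.67 (mean 0.47, limma, adjusted p = 7.28e-05) on a median of 133 reads. It went from 943 to 997 summed reads and from 541 to 736, and 5 of 8 gRNA values were above 0. Without gRNAs under 300 reads in IMR32 alone its mean score was 0.085. The 10 genes of the COP9 signalosome, again listed after the scores were seen, had medians of 0.02 and -0.01. Below 0 in both pairs were 2 (20%, against 25.4% of all genes). Above were 3, MYEOV2 among them (30%, against 24.8%).

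FAM72C and LRP8 completed the genes that rose. FAM72C is one of several nearly identical genes on chromosome 1 (chr1:143955287-143971986), so its gRNAs may cut more than a single copy. It went from 2199 to 2411 reads and from 2335 to 2713, with scores of 0.45 and 0.32 (mean 0.38, limma, adjusted p = 0.011) and 6 of 8 gRNA values above 0. LRP8, a receptor for apolipoprotein E and reelin (chr1:53242364-53328469), had 1508 and 1533 reads in replicate 1 and 1352 and 1856 in replicate 2. Its scores were 0.01 and 0.75 (mean 0.38, limma, adjusted p = 0.011), so the difference lay in pair 2. Of the 9 genes, 6 were past the cut-offs in both pairs, and RPL13, ATG4C and LRP8 were not.

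**Figure D2:**
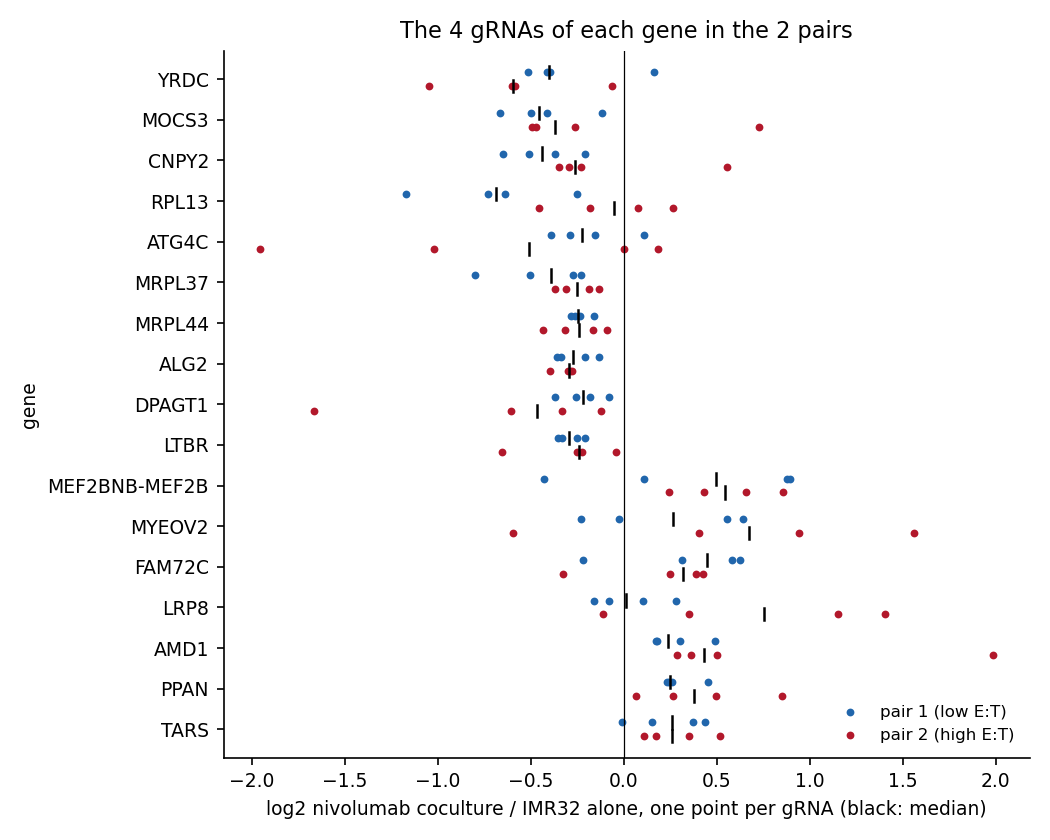
Log2 ratio of coculture with nivolumab over IMR32 alone for the 4 gRNAs of 17 genes, in pair 1 (blue, low E:T) and pair 2 (red, high E:T), with black bars at the median that is the gene score. All 8 values of MRPL37, MRPL44, ALG2, DPAGT1 and LTBR lie below 0 and all 8 of AMD1 and PPAN above 0, while all 9 genes called by limma have gRNA values on both sides of 0.

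A stricter reading asks that all 4 gRNAs of a gene point the same way in both pairs, a rule that was set after the scores were seen. Of the 19107 genes with 4 gRNAs, 83 had all 8 values below 0 (0.434%) and 70 had all 8 above 0 (0.366%). None of the 9 genes called by limma was among them. Of the genes past both low cut-offs 5 met this rule, namely MRPL37, CSH1, ALG2, TMCC1 and MRPL44, and of those past both high cut-offs 2 did, AMD1 and PPAN. No gene of these 7 passed limma over all genes.

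Of the genes with all 8 values below 0, ALG2 and DPAGT1 were picked out after the values were seen. ALG2, which adds mannose to the lipid-linked sugar that is later moved onto proteins, went from 2126 to 1811 reads in replicate 1 and from 1244 to 1007 in replicate 2. Its 8 gRNA values lay between -0.14 and -0.40, a tight set, and the scores were -0.27 and -0.29 (limma, adjusted p = 0.27). DPAGT1, which starts the same sugar chain, went from 2901 to 2603 and from 2036 to 1622, with scores of -0.22 and -0.47 (limma, adjusted p = 0.056). Its score in pair 1 stopped just short of the cut-off. In coculture without nivolumab the scores of ALG2 were -0.06 and -0.04 and those of DPAGT1 -0.13 and -0.56.

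Knockouts of the mitochondrial ribosome leaned to the depleted side. Mitochondrial ribosomes translate the respiratory chain subunits that mitochondrial DNA encodes. Of 77 genes for mitochondrial ribosomal proteins 35 had scores below 0 in both pairs, or 45.5%, and 10 had scores above 0 in both, or 13.0%. Over all genes these shares were 25.4% and 24.8%. The median score of the list was -0.10 in pair 1 and -0.03 in pair 2, against -0.0014 and -0.00072 over all genes, so that the lean was mainly that of pair 1. In pair 1 58 of the 77 were below 0 and in pair 2 44 were, against 9647 and 9597 of all 19114 genes. MRPL37 and MRPL44 lay below both low cut-offs, and with MRPL17 they had all 8 gRNA values below 0. In limma 0 of the 77 passed, and 8 had an unadjusted p under 0.05, against 1022 of all 19114 genes. In coculture without nivolumab the list medians were -0.06 and 0.004, with 61 of the 77 below 0 in pair 1 and 37 in pair 2. Over all 19114 genes 9529 and 9592 were below 0 there. The lean of pair 1 was thus also seen without nivolumab, but both ratios of that pair use the same library of IMR32 alone. The second value is therefore not separate evidence for the lean. For coculture with nivolumab over coculture without it the list medians were 0.008 and -0.04.

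MRPL37 had the lowest mean score of the list. It is a protein of the large mitochondrial subunit, and its gRNAs summed to 3012 reads alone and 2384 in coculture with nivolumab in replicate 1, and to 2679 and 2164 in replicate 2. Every gRNA was lower in both pairs, with MRPL37_1 at 324 and 186 reads in replicate 1 and MRPL37_2 at 1116 and 865 reads in replicate 2. The scores were -0.39 and -0.25 (limma, adjusted p = 0.12), whereas coculture without nivolumab gave -0.04 and 0.02. MRPL44 went from 3065 to 2601 reads and from 2229 to 1868, with scores of -0.25 and -0.24 (limma, adjusted p = 0.50), and -0.12 and -0.03 without nivolumab. The difference between the cocultures was not tested for these genes. At the other end of the list MRPL19 had scores of 0.16 and 0.08.

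Complex I, the first enzyme of the respiratory chain, leaned the same way, in a list drawn up after the scores were seen. Of 46 genes listed as subunits and assembly factors 22 were below 0 in both pairs (47.8%, against 25.4% of all genes). Above 0 in both were 8 (17.4%, against 24.8%), and the medians were -0.06 and -0.03. The list also held NDUFA4 and NDUFA4L2, which are not parts of complex I, and it was drawn up with the score of its member NDUFAF5 known. NDUFAF5, an assembly factor, lay below both cut-offs with scores of -0.31 and -0.27 (limma, adjusted p = 0.23). It went from 3420 to 2917 reads in replicate 1 and from 3163 to 3094 in replicate 2, and the smaller step in replicate 2 came from NDUFAF5_1, which went there from 1361 to 1600 reads. Of 15 mitochondrial aminoacyl-tRNA synthetases 5 were below 0 in both pairs (33.3%) and 2 above (13.3%). Among them NARS2 had scores of -0.17 and -0.25 and all 8 of its gRNA values below 0. In limma 0 genes of either list passed, and 5 and 1 had an unadjusted p under 0.05.

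**Figure D3:**
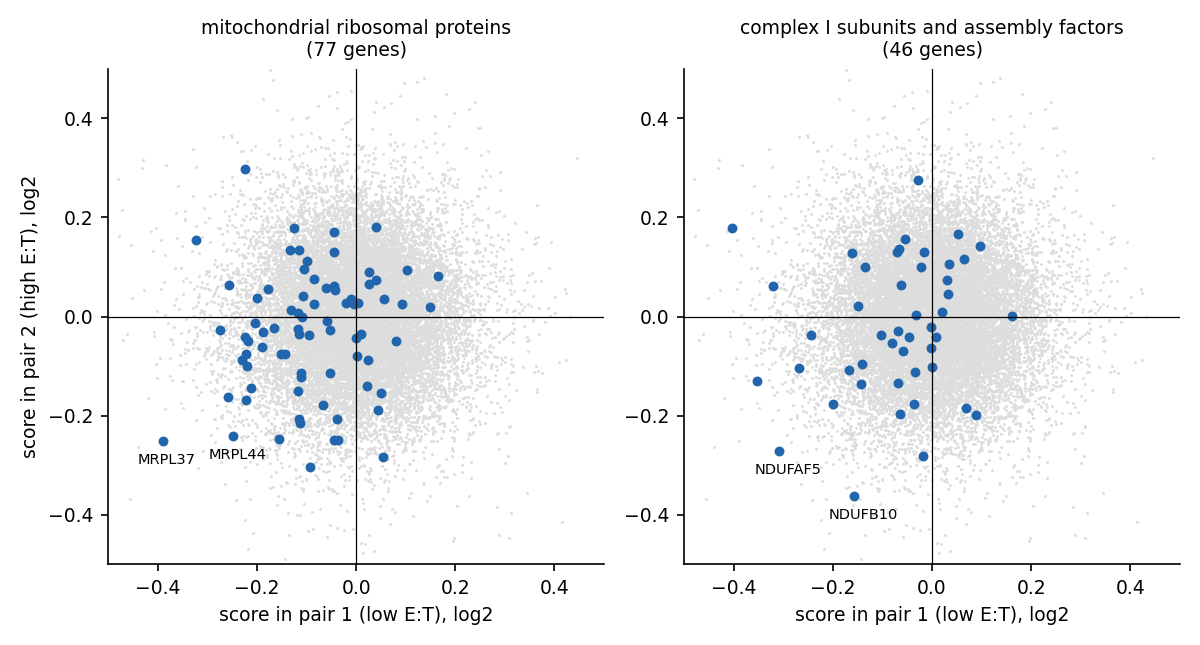
Scores in pair 1 (x axis) and pair 2 (y axis), in log2 units, of the 77 mitochondrial ribosomal proteins (left) and the 46 genes of the complex I list (right) in blue over all genes in grey. More members lie below 0 in both pairs (35 and 22) than above 0 in both (10 and 8).

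Cytosolic ribosomal proteins did not share this lean. Of 86 such genes 19 were below 0 in both pairs (22.1%) and 22 above (25.6%), with medians of -0.01 and 0.03. RPL13 fell in limma, and RPS10 and RPS12, proteins of the small subunit, lay above both high cut-offs. RPS10 went from 1022 to 1131 reads and from 936 to 1153 (scores 0.23 and 0.42), and RPS12 from 2071 to 2409 and from 1868 to 2054 (both scores 0.29). In pair 1 8 genes of the list were below the low cut-off and 7 above the high cut-off, and in pair 2 6 and 9 were. The gRNAs of this list were scarce in IMR32 alone, with a median of 378 normalized reads against 863 over all genes.

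Among the depleted genes past both cut-offs were also genes that copy or repair DNA. POLA2, the B subunit of DNA polymerase alpha, went from 2349 to 2073 reads and from 2431 to 1958, with scores of -0.24 and -0.37. RAD51C, a protein of homologous recombination, went from 2430 to 2170 and from 2221 to 1923, with scores of -0.25 and -0.27. In limma their adjusted p-values were 0.15 and 0.41. As a list the 44 DNA replication genes had 13 below 0 in both pairs (29.5%, against 25.4% of all genes). Above were 8 (18.2%, against 24.8%), and the medians were -0.01 and -0.02. CDT1, which licenses replication origins, had scores of 0.17 and 0.29. The remaining genes below both cut-offs were CSH1 (placental lactogen, with near-identical neighbours), FOXO6 (a forkhead transcription factor), BTLA (an inhibitory receptor of lymphocytes), TMCC1, MTFR1, GPT (alanine aminotransferase), UBE2Q2L and STK32A. Their scores lay between -0.23 and -0.34, and their adjusted p-values in limma between 0.13 and 0.55. UBE2Q2L is annotated as a pseudogene under the name UBE2Q2P16.

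On the enriched side, where the limit stated by the study also holds, AMD1 had all 8 gRNA values above 0. It encodes adenosylmethionine decarboxylase of polyamine synthesis. Its gRNAs summed to 1626 reads alone and 2072 in coculture with nivolumab in replicate 1, and to 1374 and 1846 in replicate 2. Both cocultures lay above both samples of IMR32 alone. The scores were 0.24 and 0.43 (limma, adjusted p = 0.071), and coculture without nivolumab gave -0.11 and 0.24. The largest single ratio, 1.99 for AMD1_4 in pair 2, rested on 32.7 and 132 reads. Of 10 genes of polyamine metabolism, a list drawn up after the scores were seen, 3 were below 0 in both pairs (30%, against 25.4% of all genes). AMD1 was the 1 above 0 in both (10%, against 24.8%).

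PPAN, a factor of ribosome assembly, also had all 8 gRNA values above 0. It went from 1827 to 2210 reads and from 1475 to 1784, with scores of 0.25 and 0.38 (limma, adjusted p = 0.12). TARS, the cytosolic threonyl-tRNA synthetase, went from 3005 to 3494 and from 2671 to 3106, with scores of 0.26 in both pairs (limma, adjusted p = 0.41) and 7 of 8 gRNA values above 0. Of 45 ribosome assembly factors, a list drawn up after the scores were seen, PPAN and UTP23 lay above both cut-offs. Below 0 in both pairs were 13 and above 13 (28.9% each, against 25.4% and 24.8% of all genes). The rest of the genes above both cut-offs were PDZK1, OR13C4, RNF169, AP1M1, TNR, COPG2, ZBTB7B, ACP6, NAA30 and PPP2R1A, with scores between 0.24 and 0.38. OR13C4 is an olfactory receptor gene, a class with no known role in these cells. Of 374 such genes 87 were below 0 in both pairs (23.3%, against 25.4% of all genes) and 106 above (28.3%, against 24.8%). Their medians were 0.005 and 0.008. The score of OR13C4 rested on OR13C4_3, with 0 to 26.1 reads in the libraries compared, and OR13C4_4, with 115 to 181.

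Of the genes for immune recognition and killing that were listed, 0 lay past both cut-offs. Over all genes 0.0889% lay below both and 0.0994% above both. At such shares lists of this size would hold hardly any such gene, so the 0 says little about these genes. Of 23 genes of MHC class I antigen presentation 6 were below 0 in both pairs (26.1%, against 25.4% of all genes). Above 0 in both were 5 (21.7%, against 24.8%). The medians were 0.02 and -0.03, and 0 genes were past both cut-offs. B2M, the light chain of MHC class I, had 5441 summed reads alone and 5224 in coculture with nivolumab in replicate 1, and 5739 and 6076 in replicate 2. Its scores were -0.07 and 0.16, opposite in sign. TAP1, a peptide transporter, had scores of -0.05 and 0.01. The ends of the list were TAPBPL (-0.30 and -0.07) and PSMB10 (0.22 and 0.01).

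Of 16 scored genes of interferon gamma signalling 6 were below 0 in both pairs (37.5%, against 25.4% of all genes). Above 0 in both were 3 (18.8%, against 24.8%), and the list medians were -0.02 and -0.04. The study reports that IMR32 failed to respond to added interferon gamma, as read from surface MHC class I and PD-L1. It also reports a functional interferon gamma receptor on the surface of all its neuroblastoma lines. Whether this bears on the scores was not tested. The receptor chain IFNGR1 had 4245 and 4278 reads in replicate 1 and 4105 and 4142 in replicate 2, with scores of 0.02 and 0.01. IFNGR2 had scores of -0.04 and -0.14, the kinase JAK1 had -0.04 and -0.16, and the kinase JAK2 had -0.07 and -0.04. These values lay within the cut-offs in both pairs. ADAR, which edits double-stranded RNA, was below the low cut-off in pair 1 (-0.27) and near 0 in pair 2 (0.02).

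Among 30 genes of TNF, FAS and TRAIL receptor signalling 4 were below 0 in both pairs (13.3%, against 25.4% of all genes) and 9 above (30.0%, against 24.8%), with medians of 0.04 and 0.01. CASP8, the initiator caspase, had scores of -0.15 and -0.19, FAS 0.04 and 0.14, and TRAF2, an adaptor of the TNF receptors, 0.26 and 0.12. Of 20 genes listed as adhesion and activating ligands of NK and T cells 2 were below 0 in both pairs (10.0%) and 8 above (40.0%). The medians were 0.05 and 0.02, and NCR3LG1, the ligand of NKp30, led with 0.20 and 0.14. The list also held the enzymes FUT1 and MGAT5, which are not ligands, and FUT1 (0.08 and 0.24) was among the 8. Of 16 checkpoint ligands 4 were below (25%) and 4 above (25%), near the shares over all genes. CD274, which encodes PD-L1, had the lowest mean score among them. It had 6115 and 5299 reads in replicate 1 and 6005 and 5926 in replicate 2, with scores of -0.22 and -0.10 and 7 of 8 gRNA values below 0 (limma, adjusted p = 0.93). In limma 0 genes of these 5 immune lists passed over all genes, 1, 0, 2, 1 and 1 of them in the order given had an unadjusted p under 0.05.

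**Figure D4:**
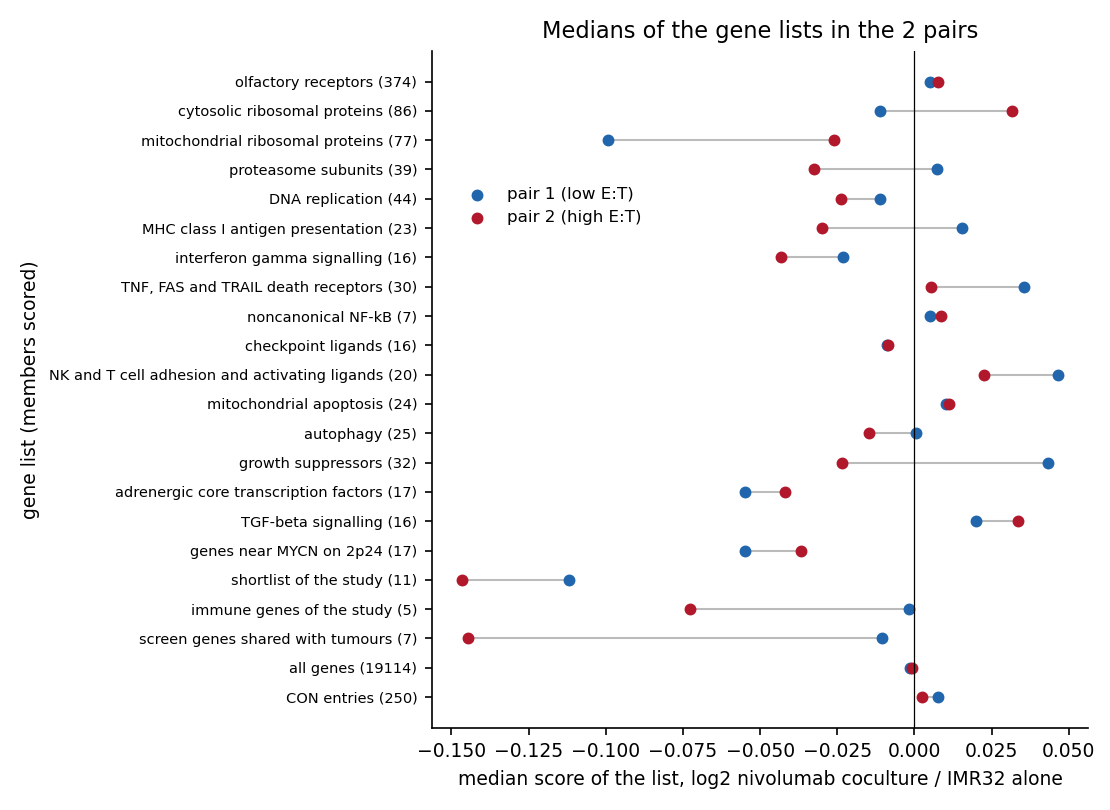
Median score of each gene list in pair 1 (blue, low E:T) and pair 2 (red, high E:T), in log2 units of coculture with nivolumab over IMR32 alone, with the number of members scored in brackets. The CON entries and all genes lie between -0.0014 and 0.0075, the mitochondrial ribosomal proteins at -0.10 and -0.03, and the 11 genes shortlisted by the study at -0.11 and -0.15.

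Genes for growth and identity of neuroblastoma cells were counted list by list, against 25.4% of all genes below 0 in both pairs and 24.8% above. MYCN had 1517 and 1386 reads in replicate 1 and 1381 and 1336 in replicate 2, with scores of -0.06 and -0.11. Of 17 scored genes near MYCN on chromosome 2p24, 11 were below 0 in both pairs (64.7%) and 3 above (17.6%), with medians of -0.06 and -0.04, and 0 were past both cut-offs. In coculture without nivolumab their medians were -0.03 in both pairs. FAM84A stood at the other end with 0.22 and 0.34, on a median of 172 reads. Of 17 adrenergic transcription factors 4 were below and 2 above. Of 32 genes listed as growth suppressors 5 were below and 8 above, with RB1 at 0.08 and, past the high cut-off of pair 2, 0.25. That list also held MDM2, PPM1D and TAF1, which are not growth suppressors, and TAF1 was among the 5. Of 24 genes of mitochondrial apoptosis 5 were below and 7 above, with MCL1, an inhibitor of apoptosis, at 0.19 and, past the same cut-off, 0.27. Of 25 autophagy genes 6 were below and 4 above, of 16 TGF-beta signalling genes 3 and 8, of 39 proteasome subunits 12 and 8, and of 7 genes of noncanonical NF-kB signalling 1 and 2.

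The study shortlisted 11 genes as depleted with nivolumab against coculture without it, and they were chosen on these libraries, so their values here are not independent evidence. Against IMR32 alone 8 of the 11 were below 0 in both pairs (72.7%, against 25.4% of all genes). TRA2B was above 0 in both (9.09%, against 24.8%), and the medians were -0.11 and -0.15. LTBR, the lymphotoxin beta receptor (chr12:6375045-6391571), had 3197 reads alone and 2610 in coculture with nivolumab in replicate 1, and 3530 and 2980 in replicate 2. All of its 8 gRNA values were below 0 and its scores were -0.29 and -0.24, past the cut-off in pair 1 and just short of it in pair 2 (limma, adjusted p = 0.39). TCF19 also had all 8 values below 0 (scores -0.14 and -0.23). LYSMD4 (-0.21 and -0.29) and COX5B, a subunit of cytochrome c oxidase (-0.17 and -0.35), were below the low cut-off in pair 2, and MGAT1, an enzyme of N-glycans in the Golgi, was so in pair 1 (-0.36 and -0.08).

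The other 6 genes of the shortlist lay within the cut-offs in both pairs. H2AFY, a histone variant gene, had 2655 and 2451 reads in replicate 1 and 2712 and 2572 in replicate 2, with scores of -0.06 and -0.00025. FSHR had scores of -0.10 and 0.07, TRA2B 0.04 and 0.21, RTKN 0.01 and -0.19, PITX1 -0.11 and -0.07, and UBL5 -0.05 and -0.15. In coculture without nivolumab against the same controls the 11 genes had medians of 0.14 and 0.18, with H2AFY at 0.23 and 0.12 and LTBR at -0.07 and -0.01. In limma 0 of the 11 genes passed over all genes, and 5 had an unadjusted p under 0.05.

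The study's further lists, of 5 and 7 genes, held 0 genes that passed limma, and 0 and 2 with an unadjusted p under 0.05. These genes too were taken from the screens of these libraries, so their values here are not independent evidence. PRMT5 had scores of 0.20 and -0.00037, CDK5R1 0.02 and -0.25, RPTOR -0.16 and -0.07, and TGFBRAP1 -0.0017 and -0.22. Of 7 screen genes that the study compared with tumours 4 were below 0 in both pairs (57.1%, against 25.4% of all genes). Above 0 in both were 0 (against 24.8%), and the medians were -0.01 and -0.14. RAD51C was the 1 past both cut-offs. RRM2, a subunit of ribonucleotide reductase, had scores of -0.13 and -0.44, BIRC5 -0.01 and -0.04, DTL -0.21 and -0.01, RBL2 0.16 and -0.11, PARP12 0.0021 and -0.24, and SLC2A1 0.12 and -0.14.

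Scores spread more where gRNAs had fewer reads. In the 1912 genes with the fewest reads in IMR32 alone the SD of the scores was 0.152 in pair 1 and 0.164 in pair 2, and in the 1912 with the most reads 0.0901 and 0.0936. The 250 CON entries, with a median of 1242 reads, had SDs of 0.0918 and 0.0948. Of them 1 lay below and 4 above the cut-offs of pair 1, 0 below and 1 above those of pair 2, and 0 past both. Of the 19 genes above both cut-offs all 19 had fewer reads than the median gene, and 12 belonged to the 1912 with the fewest. Of the 17 below both, 14 were under the median and 6 among these 1912. Of the 40 genes past opposite cut-offs 23 were among them. Single gRNAs of genes varied with a robust SD of 0.196 and 0.208, against 0.070 and 0.071 from counting error alone, which assumes that reads are independent molecules.

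**Figure D5:**
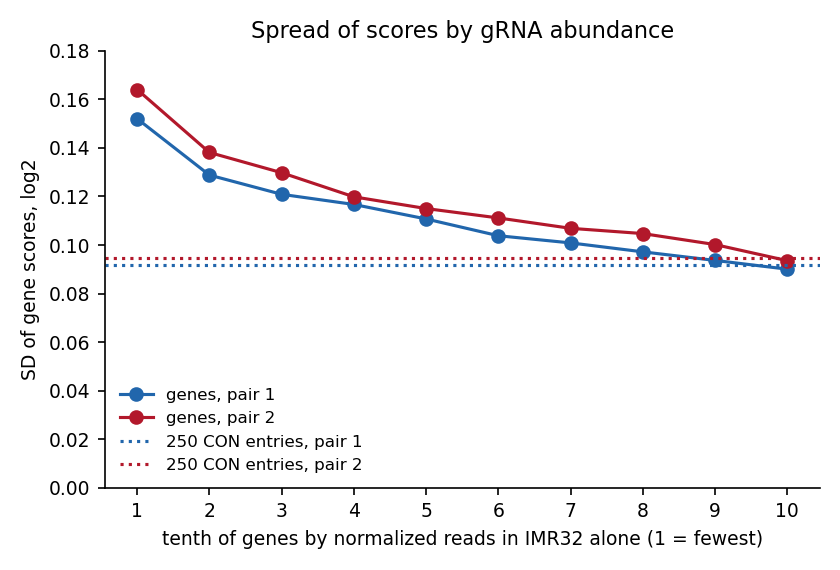
SD of the gene scores (y axis, log2 units) in 10 groups of genes ordered by normalized reads in IMR32 alone (x axis, 1 has the fewest), in pair 1 (blue) and pair 2 (red), with dotted lines for the 250 CON entries. The SD falls from 0.152 and 0.164 in the first group to 0.0901 and 0.0936 in the last, close to the CON entries at 0.0918 and 0.0948.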

How the data were processed

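The gRNAs of 6 libraries were read from genomic DNA. The labels name MAGeCK (version not given in the sources used here), and the methods name UMIs without saying whether reads were collapsed. If they were not, counting errors are too small. The deposited signal is normalized reads per gRNA, scaled by the authors to an equal total. Values in a library are multiples of a fixed step, and the sum of steps was taken as depth.

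Ratios were computed with a pseudocount of 1, which understates changes of scarce gRNAs. The 250 CON entries were left out. Scores were tested with limma 3.58.1 (R 4.3.3, intercept and eBayes, Benjamini-Hochberg, threshold 0.05), after it had been tested on simulated data. Within a pair the simulated spread beyond counting error was the same for every gRNA. The simulation therefore did not cover such a spread that differs with abundance. Replicates were paired because the study scored each donor on its own. Across gRNAs the log2 difference between replicates correlated at 0.400 between IMR32 alone and coculture with nivolumab. Named were up to 12 genes per direction past both cut-offs, genes called by limma, list members past both cut-offs, the study's lists and the ends of each list. Other genes were named after their values were seen: MTFR1, GPT, UBE2Q2L, STK32A, COPG2, ZBTB7B, ACP6, NAA30, PPP2R1A, TARS, UTP23, DPAGT1, MRPL17, NARS2, CHMP6, PSMA5, ERMAP and, for their role, B2M, TAP1, IFNGR1, IFNGR2, JAK1, JAK2, FAS and MYCN. The members and lists were chosen with earlier results of these data known. Positions are from GENCODE v44 (GRCh38). Alternatives were another pseudocount, filters on scarce gRNAs, the mean over gRNAs, scaling on olfactory receptors or CON gRNAs, other cut-offs and blocks, and left-out libraries. Python 3.11.15 was used.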

Additional observations from a re-analysis of the deposited data

Results flagged for a closer look

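In the 2 pairs 40 genes lay past opposite cut-offs, and 3 had the largest gaps. The difference between the pairs was not tested, since each pair has a single value per gene, and E:T ratio, donor and replicate cannot be told apart. CHMP6, a subunit of the ESCRT-III membrane scission machinery, had a score of 0.31 in pair 1 and -0.63 in pair 2. PSMA5, a proteasome subunit, had 0.41 and -0.41. ERMAP had -0.48 and 0.28, and its gRNA ERMAP_2 went from 363 to 198 reads in replicate 1 and from 259 to 512 in replicate 2.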

How the results depend on the processing

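The counts of limma calls depended on the fit. With the replicate block in a fit of all 6 libraries, and with no replicate block over the 4 libraries, limma called 0 lower and 0 higher genes, with 589 lower and 444 higher, and 109 lower and 96 higher, at an unadjusted p under 0.05. The abundance trend also gave 0 and 0. A pseudocount of 50 gave 3 lower and 1 higher, the mean over gRNAs 3 lower and 4 higher, scaling on olfactory receptors 2 and 2, and leaving out gRNAs under 300 reads in IMR32 alone 19 lower and 10 higher. Leaving out 1 of the 4 libraries in the fit with the block gave 0 to 6 lower and 0 to 5 higher genes, with 0 and 0 without IMR32 alone of replicate 2, and 0 and 2 without that of replicate 1. There the lone sample was assumed to vary like the other groups. For genes below both cut-offs the count rose from 17 to 32 without gRNAs under 300 reads, 9 of the 17 among them, and the mean over gRNAs gave 22, with 5 of the 17. Above both, a pseudocount of 50 gave 11 instead of 19, and the mean over gRNAs gave 24, with 7 of the 19. In a single pair, without replicate 1 or 2, 446 to 506 genes lay below and 420 to 454 above. YRDC, MRPL37, ALG2, AMD1 and TARS stayed past both cut-offs under all 7 alternatives that rescored genes or moved the cut-offs. OR13C4 turned to -0.048 without gRNAs under 300 reads. Of 400 rescored values of named genes 349 moved by less than the SD between the pairs, and of 160 list medians 118 did. The 349 include all 50 values without replicate 1 and all 50 without replicate 2. That outcome was fixed in advance, because the mean of 2 pair scores always lies within their SD of either score. Those values therefore say nothing about stability. A planned count test was not run, because the deposited values are normalized and that a step is 1 read could not be shown from the low values. The CON-based alternatives, the filter at 300 reads, the trend and the left-out libraries were chosen after seeing the data.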
